A study of Bos taurus with 22 samples.

Results

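The effect of exogenous glucagon-like peptide 2 (GLP-2) on the jejunal mucosal transcriptome was examined in steers that were infused with casein. The steers were chosen by their treatment label alone: 6 steers labelled Casein + GLP-2 were compared with 6 labelled Casein, which makes 12 of the 22 steers in the series, and all genes were considered. All were Holstein steers of 10 to 12 months of age with an abomasal catheter, and all were infused for 7 d with corn starch, raw and at 3.94 g per kg of body weight per d, together with sodium caseinate at 1.30 g per kg per d. The casein + GLP-2 steers were injected subcutaneously with GLP-2 (100 μg per kg of body weight per d) in a vehicle of bovine serum albumin in saline, and the casein steers with the vehicle only. Body weights were 229.5 to 294.1 kg with casein + GLP-2 and 220 to 273.6 kg with casein. The other 10 steers received the same starch with water in place of casein, 5 with GLP-2 injection (GLP-2) and 5 with vehicle (control), and entered the same model. Mucosa was scraped from the middle of the jejunum, so each library mixes epithelium with the lamina propria and lymphoid tissue that came off with it. Fewer cells of a type and less RNA per cell of that type cannot be told apart in such libraries.

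GLP-2 is a peptide hormone that enteroendocrine L cells cut from proglucagon (GCG) and release when nutrients reach the gut. Its receptor, GLP2R, is carried mainly by enteric neurons, enteroendocrine cells and subepithelial stromal cells, which pass the signal to the epithelium through factors such as insulin-like growth factor 1 and ligands of the ErbB receptors. The hormone is known for intestinal growth, longer villi and greater digestive and absorptive capacity. The intestinal epithelium itself renews from dividing crypt cells, which leave the cell cycle and gain brush border enzymes and transporters as they move up the villus.

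The defining epithelial genes FABP2, VIL1 and EPCAM were at high levels in all 12 libraries, while ALPI was not. Transcripts of FABP2, the enterocyte fatty acid binding protein, were at 9105 to 29518 CPM (median 13875) in casein + GLP-2 steers and 1891 to 14375 CPM (median 8067) in casein steers, where CPM stands for counts scaled to a common library size with TMM factors. The microvillus protein villin, VIL1, was at 1741 to 4150.1 CPM (median 2304) in casein + GLP-2 steers and 405 to 2048 CPM (median 1485) in casein steers, and the epithelial adhesion molecule EPCAM at 838 to 1945 CPM (median 1117) in casein + GLP-2 steers and 443 to 856 CPM (median 705) in casein steers. Intestinal alkaline phosphatase, ALPI, was lower and spread more widely, at 27.7 to 333 CPM (median 106) in casein + GLP-2 steers and 1.58 to 101 CPM (median 38.2) in casein steers. The libraries of the 12 steers held 8809666 to 23666186 counts.

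After adjustment, no gene separated the treatments at 0.05 in edgeR's quasi-likelihood test (Benjamini-Hochberg adjustment over all genes), with 0 of 15086 genes called (0%) and 1 gene (0.00663%) at the tendency threshold of 0.1. An unadjusted p of at most 0.05 was found for 3637 genes. Of these, 1491 were higher (9.88% of genes tested) and 2146 lower (14.2%) with casein + GLP-2. DESeq2's Wald test on the same counts called 891 genes at an adjusted p at or under 0.05, 315 of them higher (2.09%) and 576 lower (3.82%), and all 891 reached an unadjusted p of at most 0.05 and the same direction in edgeR. When values were compared steer by steer, all 6 casein + GLP-2 steers lay above all 6 casein steers in 77 genes (0.51%) and below them in 76 genes (0.504%). The median log2 fold change of all genes was -0.03, and 48.1% of genes were higher with casein + GLP-2. Of the genes with an unadjusted p of at most 0.05, 492 were higher by more than 1 on the log2 scale and 978 lower by more than 1.

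The counts from both tools rested on single steers. DESeq2 called 9 genes without casein replicate 1, 12 without casein + GLP-2 replicate 3, 52 without casein + GLP-2 replicate 1 and 91 without casein + GLP-2 replicate 2, but 2423 without casein replicate 6 and 1451 without casein + GLP-2 replicate 6. In edgeR, 2376 genes reached an unadjusted p of at most 0.05 without casein replicate 1, and the number of genes at the tendency threshold was 2704 without casein replicate 6 and 674 without casein + GLP-2 replicate 6. In each of the 39 lists described below DESeq2 called 0 genes in 1 or more of the 12 fits that left out a steer, and without casein replicate 6 it called 11 villus enterocyte, 11 tight junction, 8 lipid absorption and 21 ribosome biogenesis genes. Several named genes, such as IGF2R, SLC40A1 and TJP1, had no DESeq2 adjusted p in 2 of the 12 fits. SLC5A1, ERBB3 and CDH1 had one in every fit. A count of 0 can therefore include genes that were given no adjusted p. On log2(FPKM + 1) values with limma the split of genes at an unadjusted p of at most 0.05 turned to 2001 higher and 1661 lower. The study assigned treatments within 6 body weight blocks, and with the replicate block as a term edgeR called 0 genes, 0 reached the tendency threshold and DESeq2 called 695. For these reasons the sections that follow give levels, directions and counts for groups of genes, and write of a difference as called only where DESeq2's adjusted p was at most 0.05. Counts within a list are to be read beside the shares over all genes tested. These were 9.88% higher and 14.2% lower at an unadjusted p of at most 0.05, and 2.09% higher and 3.82% lower as DESeq2 calls. For genes without overlap between the groups they were 0.51% higher and 0.504% lower.

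**Figure D1:**
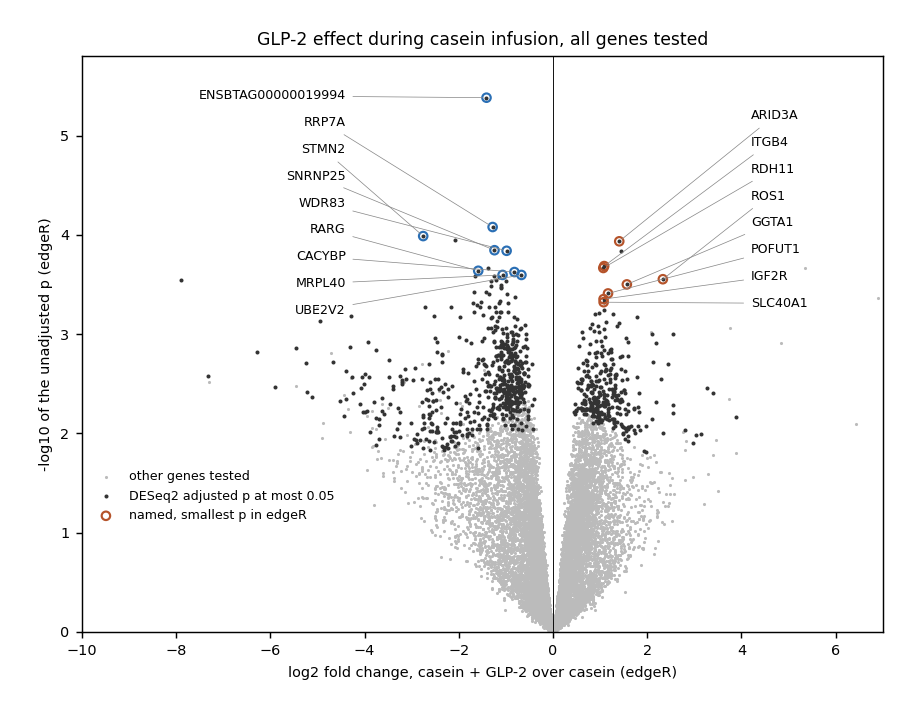
Each point is 1 of 15086 genes, with the log2 fold change of casein + GLP-2 over casein on the x axis and -log10 of the unadjusted p of edgeR on the y axis; black points have a DESeq2 adjusted p of at most 0.05, and circled genes are those with the smallest p in edgeR. One gene without a symbol, ENSBTAG00000019994, stands above the others at a log2 fold change of -1.41, and the follicle chemokine CXCL13 lies far to the left at -7.91.

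The 1 gene at the tendency threshold was ENSBTAG00000019994, a protein-coding gene without a symbol in the file, which is named because the count is 1. It lies at chr2:91270021-91271660 of ARS-UCD1.2. Its lowest, median and highest values were 5.25, 8.53 and 11.9 CPM in casein + GLP-2 steers and 15.4, 21.6 and 33.9 CPM in casein steers, so that the groups did not overlap. The log2 fold change was -1.41 (SE 0.23) with an adjusted p of 0.0627 in edgeR and 5.56e-05 in DESeq2. During water infusion the same gene had a log2 fold change of -0.18 with GLP-2. Leaving out 1 steer at a time moved its edgeR adjusted p between 0.0353 and 0.278, and it was the 1 gene called by edgeR in the fits without casein replicate 4 (adjusted p = 0.0397) and without casein + GLP-2 replicate 1. Its edgeR adjusted p was 0.162 with the replicate block.

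The 8 named genes with the smallest p among those that were higher with casein + GLP-2 included proteins of epithelial attachment, glycosylation and iron transport. All 8 had an adjusted p of 0.118 in edgeR and were called by DESeq2 (adjusted p of 0.00766 to 0.0135). RDH11, a retinal reductase (chr10:79556432-79566949), had 34.1 to 51.2 CPM (median 41.9) in casein + GLP-2 steers and 12.7 to 32.0 CPM (median 20.2) in casein steers, and was the only one of the 8 in which the groups did not overlap. ITGB4, the β4 integrin of hemidesmosomes (chr19:55840138-55872606), was at 83.3 to 234 CPM (median 136) in casein + GLP-2 steers and 43.4 to 106 CPM (median 65.3) in casein steers. ARID3A, a DNA-binding protein with an AT-rich interaction domain, was at 13.6 to 46.1 CPM (median 24.6) in casein + GLP-2 steers and 6.07 to 14.1 CPM (median 9.40) in casein steers. In both ITGB4 and ARID3A 1 or more casein + GLP-2 steers fell within the casein range. SLC40A1 encodes ferroportin, which carries iron out of the enterocyte at its basolateral side, and had 115 to 323 CPM (median 191) in casein + GLP-2 steers and 52.5 to 158 CPM (median 81.3) in casein steers (log2 fold change 1.08). Its log2 fold change during water infusion was 0.02. GGTA1, the transferase that adds α-galactose to glycans, had a log2 fold change of 1.57 (SE 0.37), POFUT1, the O-fucosyltransferase that modifies Notch receptors, 1.17 (SE 0.28), and IGF2R, the receptor that clears insulin-like growth factor 2 and sorts lysosomal enzymes, 1.07 (SE 0.26). The receptor tyrosine kinase ROS1 had the widest spread, at 12.1 to 116 CPM (median 48.2) in casein + GLP-2 steers and 6.40 to 14.3 CPM (median 10.6) in casein steers.

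Among the lower genes, the 8 with the smallest p included ribosome and RNA processing factors. RRP7A, a ribosomal RNA processing protein (chr5:113436160-113444152), had values of 17.4, 23.0 and 30.0 CPM (lowest, median, highest) with casein + GLP-2 and 34.0, 49.8 and 97.4 CPM with casein. STMN2, a microtubule-destabilizing protein known from neurons (chr14:42811857-42870107), was at 1.68, 2.41 and 4.01 CPM and 4.54, 15.5 and 38.6 CPM. RARG, the retinoic acid receptor γ (chr5:26774193-26794835), was at 1.97, 2.76 and 3.32 CPM and 4.42, 7.19 and 14.6 CPM. The groups did not overlap in these 3 genes, nor in WDR83, CACYBP and UBE2V2, an E2 ubiquitin-conjugating enzyme variant. The log2 fold changes were -1.28 (SE 0.27) for RRP7A, -2.75 (SE 0.58) for STMN2, -1.59 (SE 0.36) for RARG, -0.98 (SE 0.21) for WDR83, -0.82 (SE 0.19) for CACYBP and -0.67 (SE 0.15) for UBE2V2. SNRNP25, a protein of the minor spliceosome, and MRPL40, of the large mitochondrial ribosomal subunit, had log2 fold changes of -1.24 (SE 0.27) and -1.07 (SE 0.25), with overlapping groups. All 8 had an adjusted p of 0.118 in edgeR and of 0.00229 to 0.0126 in DESeq2. STMN2 was still called by DESeq2 in 10 of the 12 fits that left out 1 steer and had no adjusted p in the other 2, and the other 7 genes were called in 8 or 9.

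**Figure D2:**
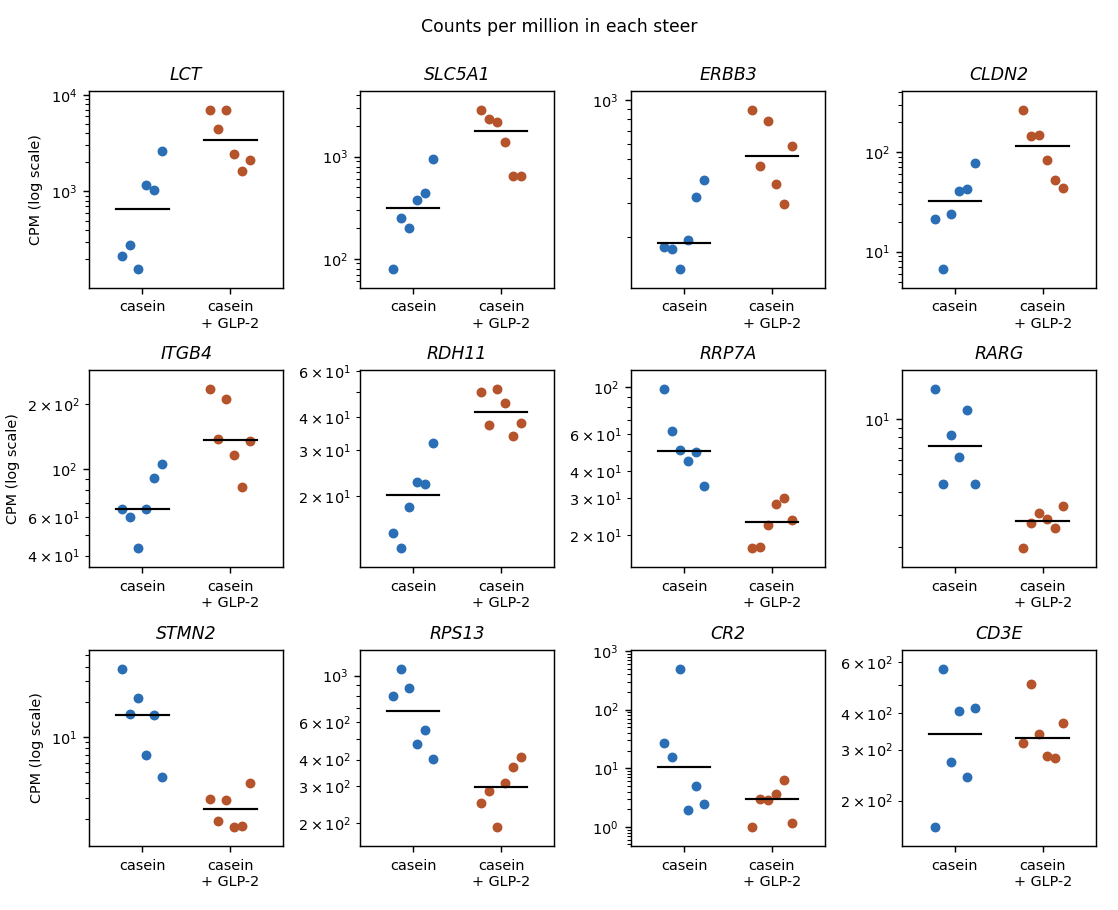
Points are single steers (6 in each group, in replicate order from left to right), bars are group medians, and the y axes are CPM on log scales of their own. RDH11 lies higher and RRP7A, RARG and STMN2 lie lower in every casein + GLP-2 steer than in any casein steer, the groups of LCT, SLC5A1, ERBB3, CLDN2, ITGB4, RPS13 and CR2 overlap, and CD3E has like medians of 328 CPM with casein + GLP-2 and 339 CPM with casein.

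Genes of the mature absorptive epithelium were mostly higher with casein + GLP-2. For villus enterocyte genes, 24 of 25 tested were higher, with a median log2 fold change of 0.94 beside -0.03 over all genes, 10 reached an unadjusted p of at most 0.05 and 3 were called by DESeq2 (CDHR2, TM4SF20 and CYBRD1), all higher. CDHR2, a protocadherin that links the tips of microvilli, was at 363 to 1452 CPM (median 652) in casein + GLP-2 steers and 161 to 462 CPM (median 314) in casein steers (log2 fold change 1.31, DESeq2 adjusted p = 0.0295). Apolipoprotein A4, APOA4, which enterocytes secrete on chylomicrons, was at 557 to 5414 CPM (median 1205) in casein + GLP-2 steers and 29.7 to 884 CPM (median 380.1) in casein steers (log2 fold change 2.07, SE 0.81, edgeR adjusted p = 0.149). Casein replicate 1 and casein replicate 3 had the lowest villus enterocyte levels of the 12, with mean log2 CPM over the list of 6.90 and 6.97, and casein + GLP-2 replicate 1 had the highest at 10.1. Leaving out 1 steer at a time moved the median between 0.74 and 1.20 and the number at an unadjusted p of at most 0.05 from 4 (without casein + GLP-2 replicate 1) to 15, and DESeq2 called 0 of these genes without casein replicate 1 and 0 without casein + GLP-2 replicate 3. CYBRD1 was not called with the replicate block (DESeq2 adjusted p = 0.0824). In that fit DESeq2 called 3 villus enterocyte genes, all higher.

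Brush border carbohydrases finish the digestion of starch and disaccharides on the villus surface. The median log2 fold change of the 6 tested was 0.99, 5 were higher, and LCT, TREH and GBA3 reached an unadjusted p of at most 0.05, while DESeq2 called 0. Lactase, LCT, had lowest, median and highest values of 1617, 3418 and 6963 CPM with casein + GLP-2 and 159, 662 and 2640.0 CPM with casein (log2 fold change 2.15, SE 0.83). Maltase-glucoamylase, MGAM, which releases glucose from starch fragments, was at 615 to 2445 CPM (median 1098) in casein + GLP-2 steers and 72.3 to 1370.5 CPM (median 467) in casein steers (log2 fold change 1.30, SE 0.70). Sucrase-isomaltase, SI, was at 747 to 1309 CPM (median 1151) in casein + GLP-2 steers and 178 to 1888 CPM (median 626) in casein steers, a log2 fold change of 0.61 (SE 0.45), and trehalase, TREH, had one of 1.01 (SE 0.38). Their edgeR adjusted p were 0.147 for LCT, 0.250 for MGAM, 0.390 for SI and 0.143 for TREH. All 4 overlapped between the groups, with casein replicate 6 inside the casein + GLP-2 range of LCT and MGAM and above all casein + GLP-2 steers in SI. Per transcript length, the deposited FPKM medians were 583 for LCT, 217 for SI, 102 for MGAM and 85.7 for TREH with casein + GLP-2, and 111, 114, 41.4 and 53.9 in the same order with casein. Without casein + GLP-2 replicate 1 the number of carbohydrases at an unadjusted p of at most 0.05 was 1, and it was 5 at most in the other fits that left out a steer. DESeq2 called 5 of them without casein replicate 6.

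Hexose carriers move the released sugars across the enterocyte. SLC5A1, the sodium-glucose cotransporter of the apical membrane, was the 1 gene of its list of 14 that DESeq2 called (adjusted p = 0.0162). Its values were 647, 1783 and 2861 CPM with casein + GLP-2 and 79.9, 315 and 953 CPM with casein, a log2 fold change of 2.13 (SE 0.60, edgeR adjusted p = 0.118). DESeq2 called it in 10 of the 12 fits that left out 1 steer, with a highest adjusted p of 0.0870. SLC2A2, the basolateral glucose carrier GLUT2, was at 95.8 to 308 CPM (median 221) in casein + GLP-2 steers and 8.72 to 255 CPM (median 48.1) in casein steers (log2 fold change 1.40, edgeR adjusted p = 0.239). For SLC2A5, the apical fructose carrier, the values were 0.177, 12.1 and 43.8 CPM and 7.40, 14.5 and 26.1 CPM, with a log2 fold change of 0.12 that turned sign when single steers were left out. The list as a whole had 13 of 14 genes higher with a median log2 fold change of 0.41, and SLC5A1 was the only one with an unadjusted p of at most 0.05. That share, 7.14%, was under the 9.88% of all genes that were higher.

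Peptidases of the brush border cut casein peptides, and carriers take up the products. Among peptidases, 14 of 16 genes tested were higher (median log2 fold change 0.66), and 5, among them DPP4, MEP1B, GGT1 and TMPRSS15, reached an unadjusted p of at most 0.05, with 0 called by DESeq2. The γ-glutamyltransferase GGT1 was at 36.8 to 157 CPM (median 91.2) in casein + GLP-2 steers and 2.41 to 65.2 CPM (median 30.4) in casein steers (log2 fold change 1.47, SE 0.56). Aminopeptidase N, ANPEP, was lower in median with casein + GLP-2, at 258 to 2073 CPM (median 505) in casein + GLP-2 steers and 114 to 1412 CPM (median 590.3) in casein steers (log2 fold change 0.50, SE 0.81, edgeR adjusted p = 0.722). For carriers of peptides and amino acids the median log2 fold change was 0.37, with 15 of 19 higher, 6 higher and 1 lower at an unadjusted p of at most 0.05, and 0 called by DESeq2. SLC3A1, the heavy subunit of the cystine and dibasic amino acid carrier, had a log2 fold change of 1.20 (SE 0.44), and the lower one was SLC1A5, a carrier of neutral amino acids, at -1.07. The peptide carrier PEPT1, SLC15A1, was at 43.0 to 454 CPM (median 167) in casein + GLP-2 steers and 68.5 to 496 CPM (median 260.2) in casein steers, with a log2 fold change of -0.47 (SE 0.61). The groups overlapped over nearly their whole ranges. Without casein replicate 1 the transporter median was 0.18 and the peptidase median 0.50. Under the replicate block DESeq2 called GGT1 (adjusted p = 0.0463).

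Fat absorption genes had the highest median of all 39 lists. Of 19 genes of lipid absorption and chylomicron assembly, 17 were higher with a median log2 fold change of 1.04, 9 of them at an unadjusted p of at most 0.05 and 1 called by DESeq2. That gene was the scavenger receptor SCARB1, which takes up cholesterol and lipids, at 24.1 to 252 CPM (median 58.1) in casein + GLP-2 steers and 26.2 to 55.7 CPM (median 31.6) in casein steers (log2 fold change 1.52, SE 0.50, DESeq2 adjusted p = 0.0369). MTTP, the microsomal transfer protein that lipidates apolipoprotein B, was at 1619 to 3994 CPM (median 2059.6) in casein + GLP-2 steers and 359 to 2330.2 CPM (median 1003) in casein steers (log2 fold change 1.13, edgeR adjusted p = 0.211). Members at an unadjusted p of at most 0.05 also included the fatty acid carrier CD36 (1.49), the cholesterol carrier NPC1L1 (1.53) and the acyltransferase MOGAT2 (1.60), and the lower member was AGPAT2 at -0.95, all as log2 fold changes. Without casein + GLP-2 replicate 1 the number of higher genes at an unadjusted p of at most 0.05 was 1, and DESeq2 called 0. Fatty acid oxidation genes were higher in 17 of 21 with a median log2 fold change of 0.54, 5 at an unadjusted p of at most 0.05. The carnitine acetyltransferase CRAT, the member with the smallest p, was at 208 to 589.7 CPM (median 303) in casein + GLP-2 steers and 89.0 to 271 CPM (median 154) in casein steers. Cholesterol synthesis genes had no common direction, with 11 of 22 higher and a median of 0.01. DESeq2 called 1 of them higher, the demethylase CYP51A1 (log2 fold change 1.32), and 1 lower, the mevalonate decarboxylase MVD, at 15.5 to 27.1 CPM (median 19.0) in casein + GLP-2 steers and 25.8 to 107 CPM (median 39.1) in casein steers (log2 fold change -1.23).

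Sphingolipids are built, broken down and recycled in the enterocyte, in part in lysosomes. Of 36 genes tested, 29 were higher (median log2 fold change 0.56), 13 higher and 1 lower reached an unadjusted p of at most 0.05, and 5 were called by DESeq2, all higher. Among them were SPTLC2, a subunit of the serine palmitoyltransferase that starts synthesis (1.02), and the lysosomal hydrolases GLB1 (0.64), GALC (1.43) and ARSA (0.82), as log2 fold changes. GLB1, the lysosomal β-galactosidase, was at 71.9, 74.6 and 129 CPM (lowest, median, highest) with casein + GLP-2 and 46.3, 54.1 and 61.1 CPM with casein, so that the groups did not overlap. The sphingomyelin synthase SGMS1 was at 49.6 to 62.4 CPM (median 53.6) in casein + GLP-2 steers and 21.2 to 64.1 CPM (median 41.5) in casein steers (log2 fold change 0.39, edgeR adjusted p = 0.239), and the lower member was the sphingosine kinase SPHK1 at -0.99. Leaving out single steers moved the number of higher genes at an unadjusted p of at most 0.05 from 8 (without casein + GLP-2 replicate 1) to 18, and DESeq2 called 0 without casein replicate 1. With the replicate block its adjusted p was 0.0544 for GALC and 0.0784 for ARSA, while SPTLC2 and GLB1 were still called. In that fit DESeq2 called 4 genes of the list, all higher.

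Junction genes, which seal and anchor neighbouring epithelial cells, were higher almost throughout. All 18 tested genes of adherens junctions and desmosomes were higher, with log2 fold changes from 0.13 to 1.12 and a median of 0.69, 11 reached an unadjusted p of at most 0.05, and DESeq2 called 5 (CDH1, NECTIN3, DSG2, DSP and EPCAM). E-cadherin, CDH1, was at 584 to 1253 CPM (median 790.0) in casein + GLP-2 steers and 229.6 to 667 CPM (median 404) in casein steers (log2 fold change 1.03, SE 0.35, DESeq2 adjusted p = 0.0443). Desmoplakin, DSP, which ties desmosomes to keratin filaments, was at 164 to 394 CPM (median 230.2) in casein + GLP-2 steers and 85.7 to 197 CPM (median 129.5) in casein steers (log2 fold change 0.98, SE 0.26, DESeq2 adjusted p = 0.0203). Both overlapped between groups. Of 24 tight junction genes, 23 were higher (median log2 fold change 0.77), 15 higher and 1 lower at an unadjusted p of at most 0.05, and DESeq2 called CLDN2, CLDN23, F11R and PATJ. Claudin 2, CLDN2, a channel for small cations and water, was at 43.5 to 264 CPM (median 114) in casein + GLP-2 steers and 6.74 to 77.3 CPM (median 32.1) in casein steers (log2 fold change 1.79, SE 0.53, DESeq2 adjusted p = 0.0244). The scaffold ZO-1, TJP1, was at 74.5 to 118 CPM (median 81.0) in casein + GLP-2 steers and 47.9 to 97.1 CPM (median 67.6) in casein steers (log2 fold change 0.36, edgeR adjusted p = 0.233), and the lower member was JAM3, an adhesion molecule also carried by endothelium, at -1.83. The number of higher genes at an unadjusted p of at most 0.05 ranged from 10 (without casein replicate 1, casein replicate 3, casein + GLP-2 replicate 3) to 17 for tight junctions and from 5 (without casein + GLP-2 replicate 1) to 13 for adherens junctions and desmosomes when 1 steer was left out. DESeq2 called 0 in either list without casein replicate 1. EPCAM and CLDN23 were not called with the replicate block (DESeq2 adjusted p = 0.0636 and 0.0621), and JAM3 was (0.0299).

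Ion and water transport was mixed, with 12 of 20 higher and a median log2 fold change of 0.47. DESeq2 called CLCA4 (log2 fold change 2.54) and GUCY2C, the receptor of guanylin (149 to 476 CPM (median 286) in casein + GLP-2 steers and 63.3 to 204 CPM (median 122) in casein steers), higher, and the potassium channel KCNQ1 lower (log2 fold change -1.78). Transcription factors of the enterocyte were higher in 17 of 19 with a median log2 fold change of 0.57, 7 of them at an unadjusted p of at most 0.05, among them HNF4A, HNF4G, GATA6, KLF4, MAF and PPARGC1A. PPARGC1A, a coactivator of mitochondrial and fatty acid oxidation genes, was the 1 that DESeq2 called (adjusted p = 0.0353), at 9.97 to 21.6 CPM (median 12.9) in casein + GLP-2 steers and 5.03 to 10.3 CPM (median 9.29) in casein steers. DESeq2 called 0 genes of either list without casein replicate 1. In the blocked fit DESeq2's adjusted p was 0.0631 for PPARGC1A, 0.0588 for KCNQ1 and 0.0621 for CLCA4. With the block DESeq2 called 3 ion and water transport genes higher and 0 lower, and 0 enterocyte transcription factors.

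Secretory epithelial cells had no such common direction. Goblet cell genes were higher in 7 of 11 (median log2 fold change 0.12), of which DESeq2 called CREB3L1, a transcription factor of secretory cells, at 86.7 to 167 CPM (median 132) in casein + GLP-2 steers and 30.2 to 105 CPM (median 80.5) in casein steers. Enteroendocrine genes were higher in 7 of 17 (median -0.07). Chromogranin A, CHGA, was at 26.9 to 80.8 CPM (median 49.3) in casein + GLP-2 steers and 34.2 to 79.1 CPM (median 62.2) in casein steers, and proglucagon, GCG, from which endogenous GLP-2 is made, at 11.5 to 20.2 CPM (median 14.8) in casein + GLP-2 steers and 10.6 to 26.3 CPM (median 17.1) in casein steers. Their log2 fold changes were -0.30 (SE 0.27) and -0.21 (SE 0.35), and the groups overlapped in both (edgeR adjusted p = 0.492 and 0.734). The carboxypeptidase CPE, which trims prohormones, had the smallest p of the list at a log2 fold change of -1.33 (SE 0.58). Tuft cell genes were lower in 9 of 10 (median -0.55), and the cyclooxygenase PTGS1, also found in stroma, was at 3.48 to 20.2 CPM (median 7.82) in casein + GLP-2 steers and 8.65 to 33.9 CPM (median 18.2) in casein steers. DESeq2 called 0 genes of the enteroendocrine and tuft cell lists. With the replicate block it called 1 tuft cell gene lower.

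Genes of crypts and dividing cells were mostly lower with casein + GLP-2. In the list of stem cell and Wnt target genes 4 of 23 were higher (median log2 fold change -0.81), 9 were lower and 0 higher at an unadjusted p of at most 0.05, and DESeq2 called MYC and CDCA7 lower. MYC, a driver of growth and ribosome production, was at 18.2 to 39.6 CPM (median 25.0) in casein + GLP-2 steers and 29.1 to 81.5 CPM (median 52.3) in casein steers (log2 fold change -1.0, SE 0.32, DESeq2 adjusted p = 0.0434). The stem cell marker OLFM4 was at 0.284, 1.17 and 16.7 CPM with casein + GLP-2 and 5.08, 9.37 and 21.2 CPM with casein, and the groups overlapped (edgeR adjusted p = 0.375). The stem cell receptor LGR5 was at most 0.344 CPM in casein + GLP-2 steers, and only casein replicate 3 exceeded that among casein steers, at 3.14 CPM, so no fold change is given. Mitotic genes were lower in 32 of 34 (median -0.82), 15 at an unadjusted p of at most 0.05, of which DESeq2 called BIRC5, or survivin, at 12.6 to 35.9 CPM (median 18.7) in casein + GLP-2 steers and 18.2 to 102 CPM (median 48.4) in casein steers. At an unadjusted p of at most 0.05, 44.1% of mitotic genes were lower, beside 14.2% of all genes. The 1 DESeq2 call among 34 was near the 3.82% of all genes called lower. MKI67, the common marker of cycling cells, was at 67.2 to 163 CPM (median 86.6) in casein + GLP-2 steers and 66.6 to 241 CPM (median 102) in casein steers (log2 fold change -0.47, SE 0.40, edgeR adjusted p = 0.463).

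DNA replication genes were lower in 42 of 44 (median log2 fold change -0.74), 23 of them at an unadjusted p of at most 0.05. The helicase subunit MCM2 was at 20.6, 25.5 and 31.6 CPM with casein + GLP-2 and 17.4, 44.5 and 109.9 CPM with casein (log2 fold change -1.16, SE 0.47, edgeR adjusted p = 0.156). DESeq2 called GINS2 and TYMS lower and POLA1 higher. The 2 calls lower among 44 genes were near the 3.82% of all genes that DESeq2 called lower. At an unadjusted p of at most 0.05, 52.3% of replication genes were lower, beside 14.2% of all genes. POLA1, the catalytic subunit of DNA polymerase α, went the other way from most of its list, at 48.9 to 86.5 CPM (median 75.3) in casein + GLP-2 steers and 27.3 to 57.3 CPM (median 48.3) in casein steers. Casein replicates 1 and 3 had the highest mitotic levels (mean log2 CPM 5.15 and 5.51) beside 3.35 to 4.50 in casein + GLP-2 steers. Without casein replicate 3 the medians were -0.50 for mitotic, -0.49 for replication and -0.38 for crypt genes, and the numbers lower at an unadjusted p of at most 0.05 were 7, 9 and 6. Without casein replicate 1 the medians were -0.74, -0.63 and -0.51, and the numbers 8, 9 and 5. For crypt genes the number was 4 without casein + GLP-2 replicate 3. DESeq2 called 0 genes of these 3 lists without casein replicate 1 or 2 or without casein + GLP-2 replicate 1, 2 or 3. Casein replicate 3 also stood apart in lymphoid follicle genes, whose germinal center B cells divide, and the part of those cells in the mitotic lists was not tested. Under the replicate block 7 mitotic, 13 replication and 6 crypt genes were lower at an unadjusted p of at most 0.05, and DESeq2's adjusted p was 0.0509 for MYC, 0.0968 for CDCA7, 0.0780 for GINS2 and 0.0770 for TYMS. DESeq2 then called 1 mitotic and 1 crypt gene lower, and 1 replication gene higher.

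Ribosomal and translation genes were the largest body of lower genes. All but 1 of 76 cytosolic ribosomal protein genes were lower, with a median log2 fold change of -0.89, 68 at an unadjusted p of at most 0.05 and 46 called by DESeq2. RPS13, of the small subunit, was at 191, 298 and 413 CPM (lowest, median, highest) with casein + GLP-2 and 403, 678 and 1079 CPM with casein (log2 fold change -1.21, SE 0.28, DESeq2 adjusted p = 0.0104). RPS6, the target of S6 kinase, was at 455 to 941 CPM (median 636) in casein + GLP-2 steers and 797 to 2098 CPM (median 1298) in casein steers (DESeq2 adjusted p = 0.0250). RPL3, at the catalytic center of the large subunit, was at 497 to 995 CPM (median 714) in casein + GLP-2 steers and 780.2 to 1541 CPM (median 1301) in casein steers (DESeq2 adjusted p = 0.0387). In all 3 the highest casein + GLP-2 steer reached into the casein range. Together the ribosomal protein genes took up 31092 to 66356 CPM (median 43181) with casein + GLP-2 and 49753 to 119945 CPM (median 84524) with casein. Many ribosomal protein genes have processed pseudogenes of near-identical sequence, so reads may have been split or lost among copies. The number lower at an unadjusted p of at most 0.05 was 57 or more in each fit that left out 1 steer, while the number called by DESeq2 was 0 without casein replicate 1 or casein + GLP-2 replicate 3, and 6, 20 and 24 without casein replicates 2, 3 and 5. It was 22 and 28 without casein + GLP-2 replicates 1 and 2. RPL6 (log2 fold change -0.98) was the 1 member of 76 without overlap between the groups, beside 0.504% of all genes lower without overlap. With the replicate block 68 were lower at an unadjusted p of at most 0.05 and DESeq2 called 37, without RPL3 (adjusted p = 0.0588).

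Factors that assemble ribosomes were lower as well. Of 48 ribosome biogenesis genes, 46 were lower (median log2 fold change -0.57), 30 at an unadjusted p of at most 0.05, and DESeq2 called 9 lower (NOP56, FBL, DKC1, NHP2, UTP4, NOLC1, POLR1C, GNL3 and MRTO4). NOP56, a core protein of the box C/D particles that methylate ribosomal RNA, was at 31.1 to 62.7 CPM (median 55.4) in casein + GLP-2 steers and 55.1 to 226 CPM (median 123) in casein steers (log2 fold change -1.37, SE 0.36). The gene listed as NPM1, nucleophosmin, is in the file a model of 1278 bases on chromosome 16 without introns, and had a log2 fold change of -1.12 (SE 0.39, edgeR adjusted p = 0.131), at levels of only 2.77 to 5.39 CPM (median 4.21) and 3.80 to 17.5 CPM (median 8.52). Of 76 mitochondrial ribosomal protein genes 71 were lower (median -0.48), 42 at an unadjusted p of at most 0.05 and 15 called by DESeq2. In 2 of the 76, MRPL53 and MRPS27, the groups did not overlap, beside 0.504% of all genes lower without overlap. Respiratory chain genes had no common direction. Those of oxidative phosphorylation were higher in 18 of 56 with a median of -0.09, and DESeq2 called 1, the complex I subunit NDUFA2, lower (36.3 to 68.9 CPM (median 43.4) in casein + GLP-2 steers and 60.2 to 120.3 CPM (median 84.0) in casein steers). That 1 call among 56 was under the 3.82% of all genes called lower. Translation factors were lower in 33 of 42 (median -0.32), and DESeq2 called 5 lower (EIF3B, EIF3K, EIF5A, EEF1D and EEF1G). EIF3B, a scaffold of initiation factor 3, was at 95.5 to 137 CPM (median 109) in casein + GLP-2 steers and 121 to 331 CPM (median 197) in casein steers (log2 fold change -0.87, SE 0.23). Genes of the amino acid response, which are induced when amino acids are short, had a median of -0.08 with 9 of 22 higher, 1 higher and 3 lower at an unadjusted p of at most 0.05 and 0 called by DESeq2. Those shares, 4.55% higher and 13.6% lower, were under the 9.88% and 14.2% of all genes. PHGDH, which starts serine synthesis, had the smallest p of the amino acid response list at a log2 fold change of -1.70 (SE 0.70). Without casein replicate 1, DESeq2 called 0 genes of these lists. In the blocked fit it called 3 biogenesis genes, NOP56, POLR1C and MRTO4, 11 mitochondrial ribosomal protein genes, the translation factors EIF3B and EEF1D lower and EEF2K higher.

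The receptor and mediators of GLP-2 moved in both directions. GLP2R was at 1.63 to 14.2 CPM (median 5.38) in casein + GLP-2 steers and 2.65 to 38.0 CPM (median 7.81) in casein steers (log2 fold change -1.05, SE 0.65, edgeR adjusted p = 0.312), so the groups overlapped and the receptor was present at low level in every steer. Insulin-like growth factor 1, IGF1, was at 1.91 to 3.51 CPM (median 2.90) in casein + GLP-2 steers and 1.58 to 7.75 CPM (median 2.95) in casein steers, with overlapping groups and a log2 fold change of -0.28 (SE 0.40). Of 25 genes of the list 10 were higher (median log2 fold change -0.23), and at an unadjusted p of at most 0.05 the higher ones were EGFR, ERBB2, ERBB3 and IRS2 and the lower ones IGF2, IGFBP5, FGF7, NOS3 and CALCRL. DESeq2 called the 3 ErbB receptors higher, with log2 fold changes of 1.53 for EGFR, 0.94 for ERBB2 and 1.28 for ERBB3. ERBB3 had lowest, median and highest values of 296, 521 and 892 CPM with casein + GLP-2 and 138, 186 and 391 CPM with casein (SE 0.32, DESeq2 adjusted p = 0.0132). It was called in 10 of the 12 fits that left out 1 steer, with casein replicate 1 and casein + GLP-2 replicate 3 the steers without which DESeq2 called 0 of the list. The 5 lower genes are known from stroma, endothelium or muscle, and whether their values follow the stromal lists described next was not tested. Under the replicate block 2 of the list were lower at an unadjusted p of at most 0.05 and the ErbB receptors were still the 3 called.

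Stromal genes were lower, at levels far below those of the epithelium. Collagen and fibroblast genes were lower in all 34 tested (median log2 fold change -1.38), endothelial and lymphatic genes in all 20 (median -1.73) and smooth muscle genes in 17 of 20 (median -1.45). At an unadjusted p of at most 0.05 the numbers were 10, 13 and 14, and DESeq2 called 3, 3 and 1. The 1 call among 20 smooth muscle genes was near the 3.82% of all genes called lower. The summed level of the smooth muscle list was 215 to 629 CPM with casein + GLP-2 and 260.4 to 1539 CPM with casein. For the collagen list it was 349.7 to 2307 CPM and 555 to 3734 CPM. Casein replicates 1 and 5 held the most smooth muscle and endothelial transcripts of the casein steers, and casein + GLP-2 replicates 5 and 6 the most of theirs. Enteric smooth muscle actin, ACTG2, was at 1.42, 3.72 and 22.1 CPM with casein + GLP-2 and 3.27, 16.6 and 49.0 CPM with casein (edgeR adjusted p = 0.211), and collagen COL1A1 at 8.66, 26.0 and 90.7 CPM and 15, 83.5 and 154 CPM (edgeR adjusted p = 0.356). The endothelial adhesion molecule P-selectin, SELP, was at 0.532, 1.79 and 3.21 CPM and 1.90, 8.15 and 16.9 CPM (log2 fold change -2.36, SE 0.66, DESeq2 adjusted p = 0.0176). LMOD1, a smooth muscle actin regulator, was at most 2.44 CPM with casein + GLP-2 and at 1.37 to 23.0 CPM with casein. GREM1, a BMP antagonist of pericryptal and follicle-associated stroma, was at most 0.115 CPM with casein + GLP-2, and in casein steers its median was 1.41 CPM with a highest value of 47.6 CPM. Smooth muscle lies beneath the villi, and the part of the amount of underlying tissue in a scraping in the lower stromal values was not tested. Without casein replicate 1 the medians were -1.20, -1.32 and -1.14 for collagen, endothelium and smooth muscle, the numbers at an unadjusted p of at most 0.05 were 4, 7 and 5, and DESeq2 called 0. Without casein + GLP-2 replicate 6 the medians were -1.86, -2.47 and -1.81, the numbers 20, 16 and 16, and DESeq2 called 12, 13 and 10. With the replicate block 5, 13 and 9 were lower at an unadjusted p of at most 0.05 and DESeq2 called 1, 9 and 1, in the same order, with adjusted p of 0.182 for GREM1 and 0.0622 for LMOD1.

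B cell follicle genes had the lowest median of all lists, and casein replicate 3 moved it most. All 29 tested were lower with casein + GLP-2 (median log2 fold change -2.24), 21 at an unadjusted p of at most 0.05 and 13 called by DESeq2. CXCL13, the chemokine that draws B cells into follicles, was at 0.115, 0.158 and 1.81 CPM (lowest, median, highest) with casein + GLP-2 and 0.752, 2.71 and 644 CPM with casein (log2 fold change -7.91, SE 1.84, DESeq2 adjusted p = 5.56e-05). The complement receptor CR2, of B cells and follicular dendritic cells, was at 0.984, 2.93 and 6.22 CPM and 1.98, 10.3 and 498 CPM, and MS4A1, which encodes CD20, at 0.355, 2.64 and 9.45 CPM and 2.07, 16.1 and 366 CPM. The highest value of all 3 came from casein replicate 3. CD79A, of the B cell receptor, was at 1.97, 5.66 and 7.91 CPM and 6.11, 12 and 108 CPM (log2 fold change -2.42, SE 0.74). The mean log2 CPM of the list was 6.45 in casein replicate 3, at most 3.50 in any other casein steer, and 0.968 to 2.97 in casein + GLP-2 steers. Without casein replicate 3 the median was -0.71, 6 genes were lower at an unadjusted p of at most 0.05 and DESeq2 called 0. In that fit 24 of 29 were still lower. DESeq2 also called 0 without casein + GLP-2 replicate 1 or 2, and 2 without casein replicate 1 or casein + GLP-2 replicate 3. The log2 fold changes without casein replicate 3 were -2.82 for CXCL13, -1.78 for CR2, -2.01 for MS4A1 and -1.26 for CD79A. The jejunum of cattle carries Peyer's patches, so whether a scraping took in follicles can differ between steers, which was not tested. In the blocked fit the median was -1.42, 9 genes were lower at an unadjusted p of at most 0.05, DESeq2 called 2, and its adjusted p was 0.0544 for CR2, 0.0637 for MS4A1 and 0.0807 for CD79A.

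Germinal center genes, which mark B cells dividing and mutating their antibody genes, were lower in 14 of 17 (median log2 fold change -1.15), and DESeq2 called MEF2B, ELL3, EAF2 and POU2AF1 lower. EAF2 was at 0.347, 1.85 and 3.70 CPM with casein + GLP-2 and 1.69, 7.81 and 59.1 CPM with casein. Without casein replicate 3 the list's median was -0.07 and DESeq2 called 0. Plasma cell genes were lower in 11 of 15 (median -0.57), 7 at an unadjusted p of at most 0.05, and DESeq2 called TNFRSF17 and DERL3. JCHAIN, which joins secreted IgA, was at 49.2 to 747 CPM (median 312) in casein + GLP-2 steers and 167 to 2966 CPM (median 1554) in casein steers (log2 fold change -1.97, SE 0.86, edgeR adjusted p = 0.176), and DERL3, of protein quality control in secretory cells, at 1.99 to 10.4 CPM (median 6.03) in casein + GLP-2 steers and 7.39 to 37.6 CPM (median 21.8) in casein steers (DESeq2 adjusted p = 0.0363). The plasma cell list kept a median of -0.46 with 6 genes at an unadjusted p of at most 0.05 without casein replicate 3, though DESeq2 then called 0. The block took the germinal center median to -0.52 with 1 gene called by DESeq2, and left 4 plasma cell genes at an unadjusted p of at most 0.05.

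Other immune genes differed less. T cell and natural killer cell genes were higher in 23 of 35 (median log2 fold change 0.17), with 1 higher and 4 lower at an unadjusted p of at most 0.05 and 0 called by DESeq2. Those shares, 2.86% higher and 11.4% lower, were under the 9.88% and 14.2% of all genes. CD3E, of the T cell receptor complex, was at 281 to 504 CPM (median 328) in casein + GLP-2 steers and 162 to 571 CPM (median 339) in casein steers (log2 fold change 0.02, SE 0.26), and CD8A, of cytotoxic and intraepithelial T cells, at 67.1 to 138 CPM (median 101) in casein + GLP-2 steers and 43.5 to 123 CPM (median 69.3) in casein steers (edgeR adjusted p = 0.539). ICOS, carried by activated and follicular helper T cells, had the smallest p of the list at a log2 fold change of -0.80, which was -0.32 without casein replicate 3. Macrophage, dendritic cell and granulocyte genes were higher in 19 of 26 (median 0.29), 4 higher and 1 lower at an unadjusted p of at most 0.05. The Fc receptor FCGR1A was at 12.7 to 33.6 CPM (median 21.1) in casein + GLP-2 steers and 3.14 to 18.5 CPM (median 12.1) in casein steers (log2 fold change 0.94), while the scavenger receptor CD163 was at 4.12 to 18.2 CPM (median 5.64) in casein + GLP-2 steers and 2.84 to 12.2 CPM (median 6.25) in casein steers (log2 fold change 0.28, SE 0.40). Type I interferon response genes were higher in 28 of 31 (median 0.52), 9 at an unadjusted p of at most 0.05 and 0 called by DESeq2. PARP14 was at 243 to 416 CPM (median 384) in casein + GLP-2 steers and 120.2 to 286 CPM (median 196) in casein steers (log2 fold change 0.81, SE 0.28, edgeR adjusted p = 0.130). Genes of the interferon gamma response and antigen processing were higher in 15 of 24 (median 0.23), and DESeq2 called 1, the immunoproteasome subunit PSMB10, lower (179 to 287 CPM (median 207) in casein + GLP-2 steers and 208 to 636 CPM (median 324) in casein steers). That 1 call among 24 was near the 3.82% of all genes called lower. Without casein + GLP-2 replicate 1 the number of type I interferon genes higher at an unadjusted p of at most 0.05 was 1. Under the replicate block PSMB10 had a DESeq2 adjusted p of 0.0854, while DESeq2 called PARP14 (0.0463). In that fit it called 1 gene of the interferon gamma and antigen processing list higher and 0 lower.

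Lists for pancreas, abomasum and blood were near the floor or sparse. Of 20 pancreas and abomasum genes written, 7 could be tested (median log2 fold change -0.95, 3 higher), and their summed level was 9.27 to 34.0 CPM with casein + GLP-2 and 11.8 to 18.9 CPM with casein. The gastric proton pump subunit ATP4B, the member with the smallest p, was at most 2.07 CPM in any of the 12 steers. Of 9 erythrocyte genes only HBQ1 could be tested (log2 fold change -0.88, SE 0.58), so blood in the samples could hardly be read. Genes typical of the distal small intestine were higher in 7 of 8 (median 0.57). The exception was the ileal bile acid binding protein FABP6, at 0.173, 1.03 and 8.82 CPM with casein + GLP-2 and 0.317, 9.04 and 53.5 CPM with casein (log2 fold change -2.78, SE 1.13, edgeR adjusted p = 0.156).

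**Figure D3:**
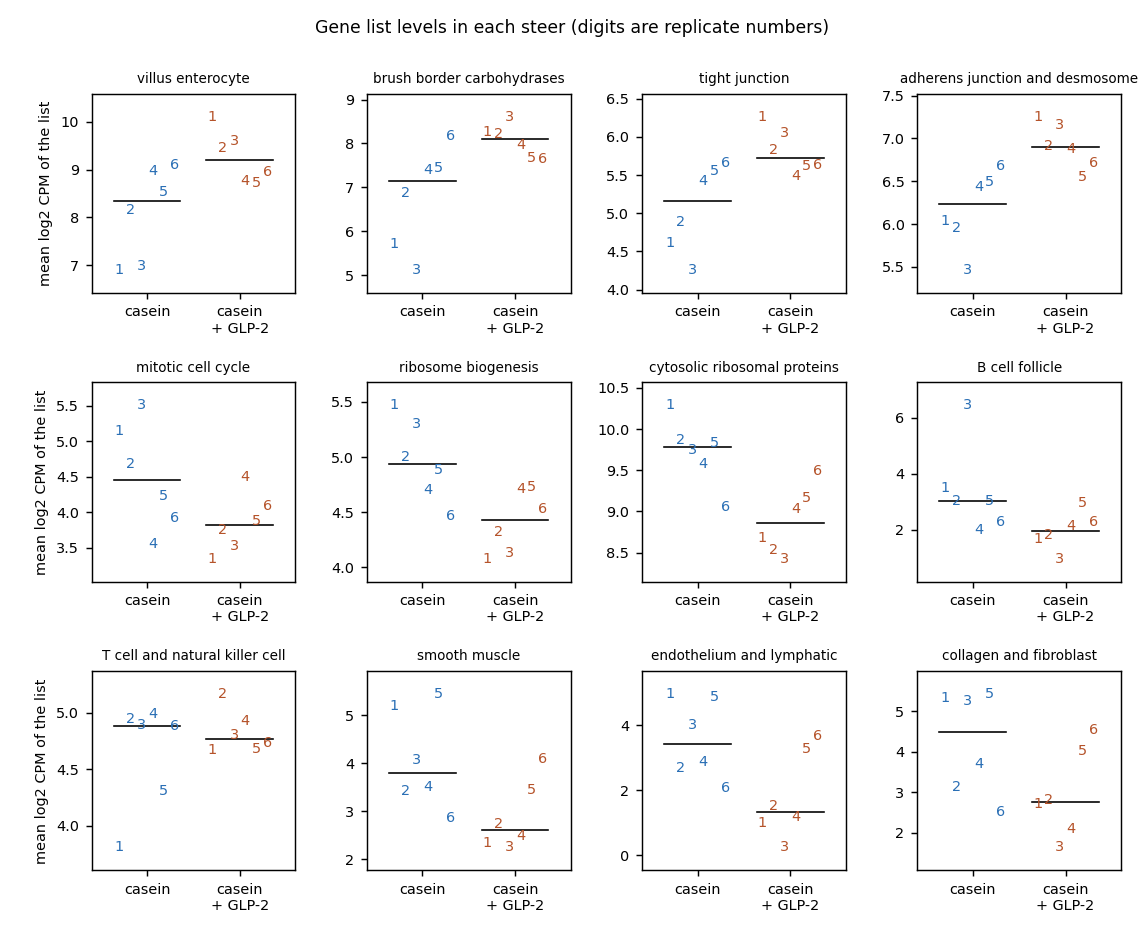
Digits are replicate numbers of single steers, the y axes give the mean log2 CPM over the genes of 12 lists, and lines are group medians. Casein replicates 1 and 3 lie lowest in the villus enterocyte and tight junction lists, casein replicate 3 alone lies high in B cell follicle genes (6.45), and casein replicate 6 lies inside the casein + GLP-2 range of all 12 lists shown.

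The tight junction and ribosome biogenesis lists had the same steers at their ends. Casein + GLP-2 replicates 1 and 3 had the highest levels of tight junction genes, with mean log2 CPM of 6.26 and 6.05, and the lowest levels of ribosome biogenesis genes, at 4.08 and 4.13. Casein replicates 1 and 3 were at the other end, at 4.61 and 4.26 for tight junctions and 5.47 and 5.30 for ribosome biogenesis. In adherens junction genes the groups overlapped little, with mean log2 CPM of 6.55 to 7.25 for casein + GLP-2 and 5.47 to 6.68 for casein. Summed CPM overlapped between the groups in all 39 lists. The RNA integrity of single libraries was not analysed here. Longer genes tended to be among the higher ones, with a median length of 2981 bases for the genes higher at an unadjusted p of at most 0.05, 1995 for the lower and 2386.5 for all tested. Across the 15086 genes, log2 fold change and gene length had a Spearman rho of 0.0981.

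Steers infused with water gave a second, separate comparison of GLP-2 injection with vehicle, since no steer was in both. There, 843 genes were higher (5.59%) and 1260 lower (8.35%) at an unadjusted p of at most 0.05, 0 had an adjusted p at or under 0.05 in edgeR and 289 in DESeq2. Over 15086 genes the log2 fold changes of the contrasts had a Pearson r of 0.498 and a Spearman rho of 0.533, as a description across genes that are not independent and were fitted in the same model. The sign was the same for 72.0% of all genes, 90.1% of the 1491 genes that were higher with casein + GLP-2 and 85.6% of the 2146 that were lower. Lists of the absorptive epithelium had medians above 0 in both infusions, at 0.94 with casein and 0.56 with water for villus enterocyte genes, 0.77 and 0.59 for tight junctions, and 0.99 and 0.98 for carbohydrases. The medians of cytosolic ribosomal proteins were -0.89 and -0.62, and those of B cell follicle genes -2.24 and -2.96.

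Medians of stromal, tuft cell and some other lists differed in size or sign between the infusions. Collagen and fibroblast genes had a median log2 fold change of -1.38 with casein and 0.32 with water, endothelial genes -1.73 and 0.01, and tuft cell genes -0.55 and 0.40. Type I interferon genes had 0.52 with casein and -0.25 with water. Peptide and amino acid transporters had 0.37 with casein and 1.00 with water. These differences between lists were not tested. Gene by gene, the casein × GLP-2 interaction reached an unadjusted p of at most 0.05 in 645 genes (4.28% of genes tested), 0 genes at an adjusted p at or under 0.05 in edgeR (smallest adjusted p 0.956) and 2 in DESeq2.

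The 2 named genes with the smallest interaction p were GBP2 and PGLYRP2 among those with the greater log2 fold change during casein infusion, and NKPD1 and PXT1 among those with the greater one during water infusion. GBP2, a guanylate binding protein induced by interferon, was at 32.2 to 85.2 CPM (median 63.8) in casein + GLP-2 steers and 18.0 to 53.9 CPM (median 38.7) in casein steers, with log2 fold changes of 0.77 with casein and -1.05 with water. NKPD1 was at 0.422 to 1.95 CPM (median 1.18) in casein + GLP-2 steers and 2.00 to 7.48 CPM (median 4.30) in casein steers, without overlap between the groups, and had log2 fold changes of -1.90 and 1.35. PGLYRP2, a peptidoglycan amidase, had a log2 fold change of -0.05 (SE 0.58) with casein beside -3.34 with water, and PXT1 was at most 1.99 CPM in the 12 steers. Among genes of nutrient uptake, SLC15A1 had log2 fold changes of -0.47 with casein and 2.27 with water and ANPEP of 0.50 and 2.69. Proglucagon had -0.21 and 0.97, chromogranin A -0.30 and 0.91, and IGF1 -0.28 and 1.04. None of these genes passed adjustment for the interaction in edgeR.

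The 2 genes that DESeq2 called for the interaction have no symbol in the file and are given because only 2 were called. ENSBTAG00000054260, which the file describes as a cytochrome P450 of the CYP3A family, was at 32.5, 53.4 and 119.9 CPM (lowest, median, highest) with casein + GLP-2 and 0, 0 and 25.7 CPM with casein, and at a median of 0.0882 CPM in control and 0 in GLP-2 steers. It was above 0 in 11 of 22 steers, so that the fitted interaction (DESeq2 adjusted p = 4.03e-14) is given without a fold, and within casein infusion its unadjusted p in edgeR was 0.0520 and its adjusted p in DESeq2 0.309. Medians were 0 in casein and GLP-2 steers, so the DESeq2 interaction p is not read as a measure of strength. In edgeR the smallest interaction adjusted p of any gene was 0.956. Genes of this family are near-identical copies, among which reads may have been split. ENSBTAG00000039559 (DESeq2 interaction adjusted p = 0.00827) was at 0 to 1.77 CPM with casein + GLP-2 and at most 0.106 CPM with casein, with medians of 0.970 in control and 0.160 in GLP-2 steers.

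**Figure D4:**
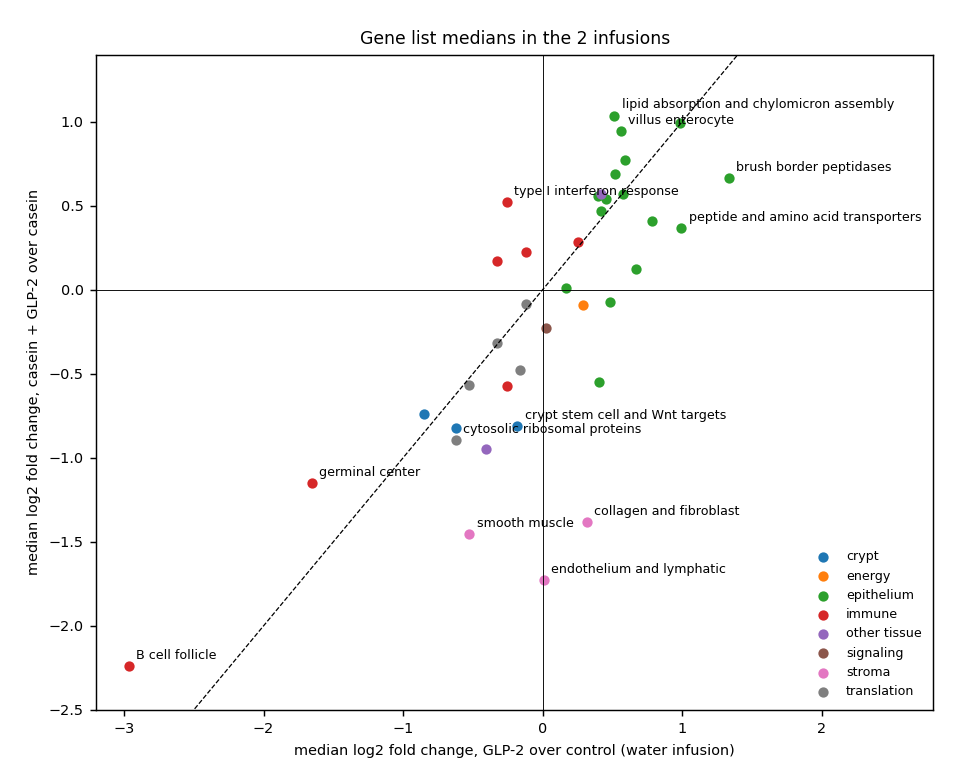
Each point is the median log2 fold change of 1 gene list of at least 5 tested genes, GLP-2 over control on the x axis and casein + GLP-2 over casein on the y axis, coloured by compartment, with the dashed line where both are equal. Epithelial lists lie mostly in the upper right, B cell follicle (-2.96 and -2.24) in the lower left, and endothelium and collagen near or right of 0 on the x axis but well below 0 on the y axis.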

How the data were processed

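RNA sequencing data of jejunal mucosa from 22 steers were used. The authors aligned strand-specific reads to ARS-UCD1.2 with HISAT2 2.0.5 and deposited raw gene counts (featureCounts 1.5.0-p3) and FPKM values, and the submitters' processing notes also name StringTie 1.3.3b and DESeq2 1.20. Groups came from the treatment labels. The table held 27570 genes, 7243 of them without a symbol. Counts of the 12 steers infused with casein summed to 8809666 to 23666186, so that values well under 1 CPM rest on few counts. No pair of libraries was identical (0 pairs), and each steer was 1 library.

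Counts were filtered with filterByExpr (minimum count 10), which kept 15086 genes, scaled by TMM and fitted with edgeR 4.0.16 (R 4.3.3) as 4 treatments over all 22 steers, with the quasi-likelihood test and two-sided p adjusted by Benjamini-Hochberg. An adjusted p of at most 0.05 was called and one of at most 0.1 was a tendency. DESeq2 1.42.0 (Wald test) gave the calls cited by that name, and its adjusted p was absent for 1473 genes. limma 3.58.1 was applied to log2(FPKM + 1) and log2(FPKM + 0.1) as an alternative. The deposited FPKM values served otherwise only to compare levels between genes. CPM are TMM-scaled counts, and list levels are means of log2 CPM with a prior count of 2. The model was tested on simulated data before use. Steers had been assigned to treatments within 6 body weight blocks, formed because stalls were limited, and the replicate numbers name these blocks. Deviations of same-numbered casein and casein + GLP-2 steers correlated at -0.464 to 0.333 (mean -0.0772 over 6 pairs, beside 0.0156 over 30 other pairs). The block was an alternative term, and its values stand beside the results it changed.

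The treatments, the 39 gene lists (1107 genes, of which 1061 were found by symbol and 46 were not) and the genes always named were chosen with earlier results of these data known. Where a symbol had more than 1 identifier, which held for 12 symbols, the one with the most counts was used. Genes named were, by rule, the 8 higher and 8 lower with the smallest p and a symbol, a fixed list of markers (some genes are not reported here), the member of each list with the smallest p, and the 2 in each direction with the smallest interaction p. Further members named because they passed a threshold were chosen after their values were seen. Alternatives were other normalizations and filters, a replicate block, a correction for gene length, a robust estimate of spread, the other tools, fits on only the steers compared and fits without each steer. Leaving out steers in DESeq2, and the block and only the 12 steers in DESeq2 for the casein infusion, were added after the data were seen.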

Additional observations from a re-analysis of the deposited data

Results flagged for a closer look

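In 18 of 268 groups of 6 steers, 1 steer lay far from the rest of its group by Dixon's ratio at the 95% level. Chance alone marks about 1 group in 20, and the 18 were not far above that share. The groups are not independent, since genes were tested beside lists that hold them. Values are log2 CPM, or the mean log2 CPM over a list, each followed by the nearest value of the same group.

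Casein replicate 3 accounted for 9 of the 18. It was high in B cell follicle genes (6.45, next 3.50), germinal center genes (5.60, next 3.44), CXCL13 (9.33, next 3.23), ICOS (6.23, next 4.67), LGR5 (1.71, next -2.83, the value at 0 counts) and the lipid receptor SCARB1 (5.80, next 5.10). The same steer was low in tuft cell genes (1.84, next 2.39), oxidative phosphorylation genes (6.73, next 7.65) and the secretory cell factor CREB3L1 (4.93, next 6.06). Casein replicate 1 was low in POLA1 (4.78, next 5.54).

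Among casein + GLP-2 steers, replicate 4 was high in cholesterol synthesis genes (6.62, next 6.12) and in HBQ1, a globin chain and the 1 testable erythrocyte gene, so that gene and list share the value (1.62, next 0.436), and low in SLC2A5 (-1.66, next 2.93). Replicate 5 was high in CXCL13 (0.965, next -1.30) and low in POLA1 (5.61, next 6.13). Replicate 1 was high in GLB1 (7.01, next 6.35), and replicate 6 was low in SI (9.54, next 10.1).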

How the results depend on the processing

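No gene was called by edgeR (0 genes) under any other normalization, filter or spread setting, or on only the 12 steers, where the smallest adjusted p was 0.0894. With limma on FPKM values 0 genes were called at either pseudocount. DESeq2 called 891, and 1724 on only the 12 steers. At the tendency threshold, where 1 gene passed, 0 passed without a filter or with gene length correction, 826 with at least 10 counts in every steer, 1236 on only the 12 steers, 2356 with DESeq2 and 3132 with DESeq2 on only the 12 steers. For water infusion DESeq2 called 289 genes, and 267 on only its 10 steers, and for the interaction 2.

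Leaving out 1 steer gave 0 to 1 calls in edgeR, 0 to 2704 at the tendency threshold, 2376 to 4595 at an unadjusted p of at most 0.05, 9 to 2423 calls in DESeq2, and 0 to 118 for water infusion (118 without casein replicate 3). The interaction kept 0 in edgeR.

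With the replicate block edgeR called 0 genes (smallest adjusted p 0.162), with 0 at the tendency threshold, also with gene length correction, and 3073 at an unadjusted p of at most 0.05, and DESeq2 called 695. The block changed no call of edgeR other than the tendency, and the calls of DESeq2 that it changed among genes named are given beside them.

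Of 2354 recomputed log2 fold changes of named genes 2215 kept direction and side of the threshold, 110 passed it newly and 29, of 7 genes, turned sign. The 110 were DESeq2 values, apart from the edgeR values of ENSBTAG00000019994 without casein replicate 4 and without casein + GLP-2 replicate 1. Since edgeR called 0 genes in the main fit, none could lose a call. With the replicate block, alone and with length correction, SLC2A5 was -0.0764 and -0.0886 and PGLYRP2 0.27 and 0.28, while PXT1 was 0.10 with both. With limma at pseudocounts 1 and 0.1 SLC2A5 was -0.27 and -0.66 and PGLYRP2 0.0370 and 0.17, and PXT1 was 0.0283 at 0.1. CD3E was -0.0396 with upper quartile scaling, -0.00745 with the stricter filter and -0.0113 with length correction or only 12 steers. Without single steers the ranges were -0.12 to 0.22 for CD3E, -0.51 to 0.41 for SLC2A5, -0.32 to 0.68 for PGLYRP2, -1.03 to 0.18 for PXT1, -0.0934 to 0.52 for CD163, -0.42 to 0.15 for IGF1 and, for a gene given no fold because its fitted value hangs on casein replicate 3, -3.29 to 3.47 for LGR5. Of 973 list medians 968 moved by less than the spread between steers. Pancreas and abomasum genes went to 1.11 on only the 12 steers and -0.46 with limma at pseudocount 1. The filter was applied anew on only the 12 steers, while the limma fit used the genes of the main fit. The erythrocyte list had no gene under the stricter filter. The causes of these changes were not tested. Upper quartile scaling moved the median of all genes to -0.09 and RLE to -0.02.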
